A study of Mus musculus with 4 samples.

Results

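The Klk1 family of tissue kallikreins was examined in the sublingual gland, a mainly mucous salivary gland, of female mice that lack Nkx2-3, a homeobox transcription factor gene. Members were taken by symbol from the deposited count table: Klk1 and 9 of its Klk1b paralogs (Klk1b1, Klk1b3, Klk1b4, Klk1b5, Klk1b11, Klk1b22, Klk1b24, Klk1b26 and Klk1b27), 10 of 24411 genes. All libraries share the same genotype (Nkx2.3-/-), background strain (C57BL/6J) and sex, and they differ by the labelled age: 8 weeks (replicates 1 and 2) and 32 weeks (replicates 3 and 4). The labels do not say whether a library holds the glands of a single animal or a pool. No gland with intact Nkx2-3 was analysed here, so each statement on age holds within the knockout only. All 10 members had at least 1 count, and 9 passed the low-count filter; Klk1b26 did not.

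Tissue kallikreins are secreted serine proteases of the trypsin type. Klk1 is the kallikrein that releases kinins, vasoactive peptides, from kininogens, which act through the bradykinin receptors. In the mouse the gene was duplicated many times in tandem, and the Klk1b copies process growth factors and other precursors rather than kininogen alone. They are best known as products of duct cells of the submandibular gland, the granular convoluted tubules, where many of them are induced by androgens and are higher in males. The samples here are all female and come from another gland.

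The members lie in a tandem cluster on chromosome 7 of NCBIM37, the assembly that mm9 names, between 51222121 and 51484987, a span of 262.9 kb, and all are on the plus strand. GENCODE vM1 annotates 15 Klk1 and Klk1b genes in the cluster, of which Klk1b7-ps and Klk1b8 lie before that interval, and each member's longest coding transcript has 5 exons. Klk1 (51480807 to 51484987) is the last gene of the row, next to Klk1b5 (51471844 to 51476073), Klk1b4 (51462805 to 51467124), Klk1b3 (51453561 to 51457721) and Klk1b24 (51443606 to 51447822). Further upstream are Klk1b22 (51368043 to 51372292), Klk1b27 (51307660 to 51312075), Klk1b26 (51268048 to 51272335), Klk1b11 (51251247 to 51255245) and Klk1b1 (51222121 to 51226688). Klk1 is the only member with an overlapping annotated gene, Gm10109 on the minus strand. Gm10109 has no entry among the deposited counts, and the sources used here do not give the strand setting of the counting. Whether reads of Gm10109 were added to Klk1 could not be told.

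How well the counts can separate the members depends on how their transcripts differ. Over the aligned coding sequences 269 of 795 positions were variable and free of gaps. Identity ranged from 83.1% between Klk1b4 and Klk1b26 to 95.2% between Klk1 and Klk1b5, its neighbour, and was 93.6% between Klk1b24 and Klk1b27. The 60-base stretch with the most variable positions, 36 of 60, covers bases 682 to 741 of the Klk1 coding sequence. Its sequence in the members that the age comparison turns on, and in the nearly undetected Klk1b26, has the bases that differ from Klk1 in capitals.
Klk1: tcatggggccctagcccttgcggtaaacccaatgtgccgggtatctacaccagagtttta
Klk1b5: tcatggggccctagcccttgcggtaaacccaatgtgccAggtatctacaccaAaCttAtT
Klk1b4: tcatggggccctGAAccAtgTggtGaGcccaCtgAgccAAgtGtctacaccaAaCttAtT
Klk1b11: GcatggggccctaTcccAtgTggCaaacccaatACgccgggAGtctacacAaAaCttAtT
Klk1b22: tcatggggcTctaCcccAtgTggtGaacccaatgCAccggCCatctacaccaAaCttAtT
Klk1b24: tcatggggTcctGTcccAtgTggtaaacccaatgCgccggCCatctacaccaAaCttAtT
Klk1b26: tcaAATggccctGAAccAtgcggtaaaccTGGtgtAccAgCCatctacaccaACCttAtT
In this stretch Klk1b5 differed from Klk1 at 5 positions, Klk1b24 at 12, Klk1b22 at 13, Klk1b11 at 14, Klk1b4 at 16 and Klk1b26 at 19.

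Even this variable stretch therefore leaves Klk1b5 close to Klk1. Of all 50-base stretches of a transcript, the share found in no other protein-coding gene was lowest for Klk1b24 (67.8%), Klk1 (68.9%) and Klk1b5 (71.8%), and highest for Klk1b22 (86.7%) and Klk1b11 (89.6%). Klk1b5 shared 20.9% of its 50-base stretches with Klk1, Klk1b3 10.1%, Klk1b4 7.85%, Klk1b24 6.90% and Klk1b11 6.63%, against 0.124% for Klk1b22. Klk1b24 shared 20.5% with Klk1b21, another paralog in the table. With stretches of 100 bases every member had at least 91.1% of its own. The sources used here give neither the read length nor what was done with reads matching several genes, and how far such reads moved between members was not tested.

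**Figure D1:**
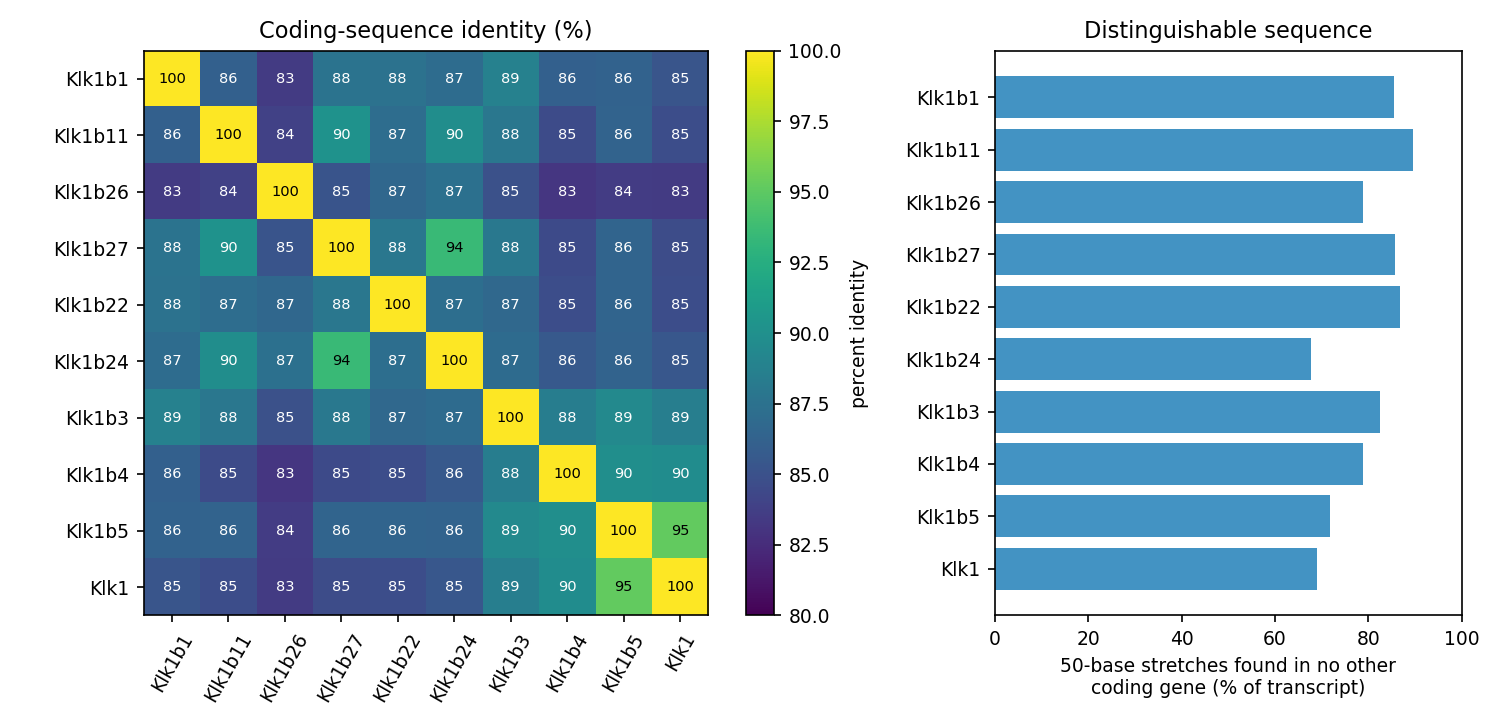
Left, percent identity of the coding sequences of each pair of members, in chromosome order. Right, the percentage of each transcript's 50-base stretches found in no other coding gene. Klk1 and Klk1b5 are the closest pair (95.2%), and Klk1b11 has the most distinguishable transcript (89.6%).

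The sequences just upstream of the genes were alike as well. Each of the 10 members had TTTAAA, a variant of the TATA box, in the 100 bases before its annotated transcript start, against 4.21% of 22594 such windows of protein-coding genes (both strands, NCBIM37). Its distance to the annotated start varied, from 13 bases for Klk1b3 to 50 bases for Klk1b4. Whether it acts as a TATA box was not tested. The usual TATAAA was in 0 of the 10 windows and in 6.18% of all windows. The windows of the 2 most abundant members and of the member with the largest age difference are shown for comparison, with TTTAAA in capitals. They are chr7:51480707-51480806 for Klk1, chr7:51251147-51251246 for Klk1b11 and chr7:51367943-51368042 for Klk1b22, all on the plus strand.
Klk1: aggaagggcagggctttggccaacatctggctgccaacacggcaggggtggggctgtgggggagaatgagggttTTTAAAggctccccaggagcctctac
Klk1b11: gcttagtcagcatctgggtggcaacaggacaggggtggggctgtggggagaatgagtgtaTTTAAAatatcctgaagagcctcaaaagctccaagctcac
Klk1b22: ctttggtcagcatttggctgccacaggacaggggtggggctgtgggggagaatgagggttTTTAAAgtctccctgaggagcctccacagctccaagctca
The windows of Klk1 and Klk1b22 were 87.2% identical and those of Klk1 and Klk1b11 80.2%, each over 86 aligned bases. The levels of these genes differed widely nonetheless, as described next. A match of letters is a description of the sequence only.

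Depth ranged from 12925869 to 16484772 counts per library, and levels are CPM, counts scaled to library size with TMM factors. The defining sublingual products Muc19, Smgc, Dcpp1, Dcpp2 and Dcpp3 were abundant in all libraries, and the 11 genes of the sublingual list summed to 300349 and 395635 (8 weeks), then 481532 and 313039 CPM (32 weeks). Nkx2-3 had 21 to 31 counts per library, and the sources used here do not give the deleted part of the gene. Some products of other salivary glands stood apart in 8-week replicate 1. Amy1, salivary amylase, had 2059 counts there and 28 or 29 in each other library. Smr3a, a submandibular product, had 674 counts there and 0 elsewhere, and Dnase1 had 337 counts there and 12 to 16 elsewhere. Other listed acinar products of parotid and submandibular glands did not follow this, but of these Car6 and Pip were abundant in every library. Car6 had 907 and 2527 (8 weeks), then 987 and 1480 CPM (32 weeks). Lpo had 33.4 and 138 and then 43.9 and 26.1 CPM, so both were highest in 8-week replicate 2. Pip lay between 9661 and 18902 CPM and was highest in 32-week replicate 3. Whether these 3 genes came from the sublingual gland itself or from other tissue was not tested. In 8-week replicate 2 the 8 leukocyte markers summed to 96.6 CPM, against 540.1 to 964 CPM in the other libraries. Most of each sum was Jchain, a plasma cell gene (73.7 CPM there, 512 to 920.2 elsewhere), and Ptprc, the common leukocyte antigen gene, had 5.32 CPM there and 7.53 to 10.04 elsewhere. Values are therefore also given without each library in turn. Such a fit sets 1 library against 2, has 1 residual degree of freedom and assumes that the lone library varies like the other age, so its fold changes are shown as values and its p-values support no call.

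Klk1 was by far the most abundant member. It took 97.1% of the family's counts in 8-week replicate 1 (95% Clopper-Pearson interval 96.9 to 97.3%), 97.4% in 8-week replicate 2 (97.3 to 97.6%), 97.7% in 32-week replicate 3 (97.5 to 97.9%) and 97.3% in 32-week replicate 4 (97.1 to 97.5%). These intervals cover counting error only. The share was thus nearly the same in each library, and the mean at 32 weeks was 0.259 percentage points above that at 8 weeks, less than the pooled SD within an age (0.264 points).

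Together the members took 0.217% and 0.451% of all counts at 8 weeks and 0.195% and 0.144% at 32 weeks. On the TMM scale the family summed to 2066 and 4441 CPM at 8 weeks and to 2226 and 1345 CPM at 32 weeks. The ages overlapped, since 32-week replicate 3 lay above 8-week replicate 1. The log2 ratio of the mean log levels, 32 over 8 weeks, was -0.81, and the pooled SD within an age was 0.66. Without 8-week replicate 2, which held the highest total, the ratio was -0.25.

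Per kilobase of transcript, so that genes can be compared, Klk1 averaged 2801 ± 1488 CPM per kb (SD, n = 4 libraries) and Klk1b11 51.4 ± 26.3. Klk1 was 54.5 times as high as Klk1b11, and neither gene's range overlapped that of the next member. Klk1b22 (7.18 ± 5.43), Klk1b5 (5.84 ± 3.81), Klk1b4 (3.66 ± 2.10), Klk1b27 (2.93 ± 2.32), Klk1b3 (2.03 ± 1.36), Klk1b24 (1.56 ± 1.35) and Klk1b1 (1.15 ± 0.254) followed, and the ranges of each neighbouring pair among these overlapped. Klk1b22 lay above Klk1b5 in only 1 of 4 libraries, so their order in the mean came from 8-week replicate 1. Klk1b5 was above Klk1b4, and Klk1b3 above Klk1b24, in 4 of 4 libraries.

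Klk1b26, a paralog known as a prorenin-converting enzyme, was at the limit of detection. It had 1 count in 8-week replicate 2 and 0 in the other libraries, where a count of 0 allows up to 3 counts, or 0.174 to 0.221 CPM. No age difference can be read from it.

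**Figure D2:**
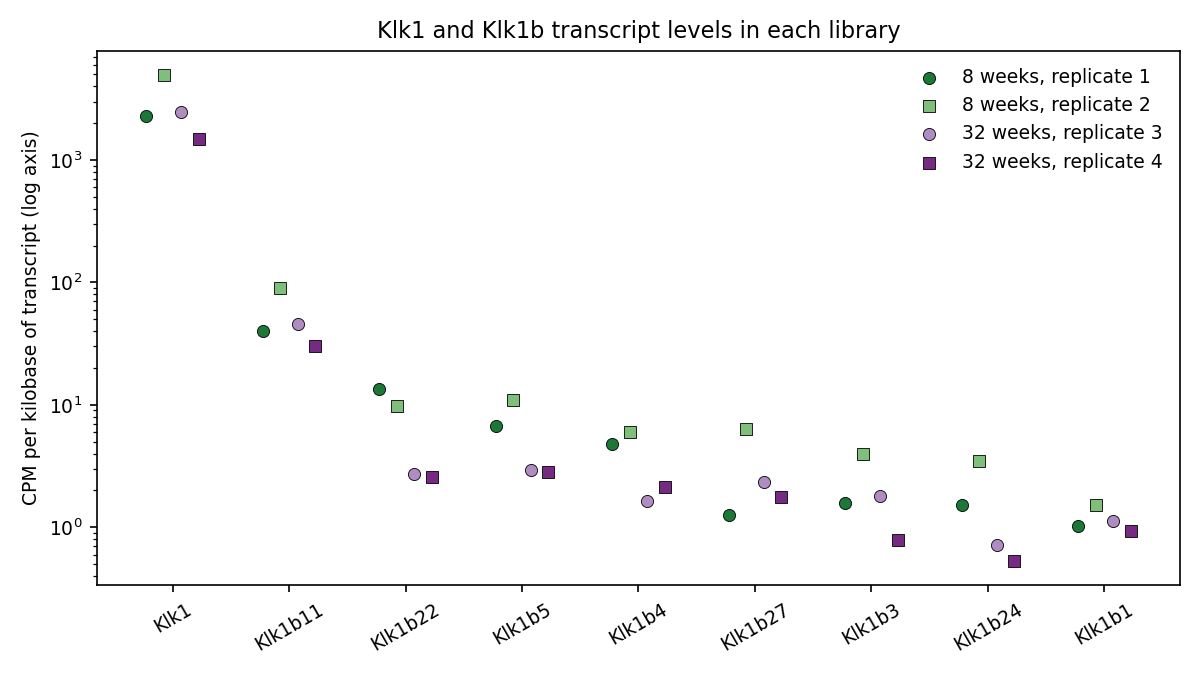
CPM per kilobase of transcript (log axis) of the 9 members that passed the low-count filter, 1 point per library, ordered by their mean. Klk1 lies between 1494 and 4940 and Klk1b11 between 30.1 and 89.5, both clear of every other member; 8-week replicate 2 is the highest library for all but Klk1b22.

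No member passed the test of the age comparison. With edgeR's quasi-likelihood test and Benjamini-Hochberg adjustment, 0 of the 9 tested members reached an adjusted p of 0.05, as did 0 of all 12810 genes tested (0%). All 9 tested members had a negative fold change (lower at 32 weeks), against 51.7% of all genes tested, and their median log2 fold change was -1.13, against -0.01 for all genes. An unadjusted p under 0.05 was seen for 4 of the 9, all lower at 32 weeks, namely Klk1b4, Klk1b5, Klk1b22 and Klk1b24; 0.585% of all genes met this rule in that direction and 1.36% in either. The same 4 genes had both 32-week libraries below both 8-week libraries, which 14.2% of all genes did. Klk1b24 passed the low-count filter only through its 8-week libraries, where it was higher, so its direction adds no support. The members share sequence, libraries and neighbourhood, so their common direction is not that many separate observations. The labels do not say that libraries come from separate animals, so p-values measure only the spread between these libraries, which may be technical. For a single value the smallest exact permutation p that 2 libraries against 2 can give is 0.333.

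The common direction leaned on 8-week replicate 2. It held the highest level of 8 of the 9 tested members, where 34.7% of all genes peaked in that library. When it was left out, 7 of 9 members were negative, against 48.2% of all genes, with a median of -0.31. Klk1b22 (-2.34), Klk1b4 (-1.33), Klk1b24 (-1.28) and Klk1b5 (-1.20) stayed well below 0, and the other members lay between -0.31 and 0.71. All 9 were negative when 8-week replicate 1 (median -1.64), 32-week replicate 3 (-1.32) or 32-week replicate 4 (-0.69) was left out instead. Of all genes 49.8%, 50.6% and 52.7% were negative in that order. These fits put 4 of 9 members past the threshold without 8-week replicate 1 (2.15% of all genes) and 1 of 9, Klk1b22, when 8-week replicate 2 (0.0455%), 32-week replicate 3 (0.0837%) or 32-week replicate 4 (0.130%) was left out, counts that rest on a lone library at 1 age.

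Klk1, which frees kinins from kininogen, had 27171 and 62670 counts at 8 weeks, against 31463 and 22500 at 32 weeks. The 8-week libraries differed 2.16-fold in CPM and enclosed 32-week replicate 3, so the ages overlapped. The log2 fold change was -0.86 (SE 0.46, 95% interval -1.94 to 0.21, edgeR adjusted p = 0.999), and with single libraries left out it ranged from -1.31 (without 8-week replicate 1) to -0.20 (without 8-week replicate 2).

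Klk1b11, the second member by level, had 467 and 1119 counts at 8 weeks and 574 and 446 at 32 weeks. Its log2 fold change of -0.77 (SE 0.39, 95% interval -1.67 to 0.14, edgeR adjusted p = 0.999) was close to that of Klk1, and the ages overlapped in the same way. Leaving out 8-week replicate 2 gave -0.07, and leaving out 8-week replicate 1 gave -1.24.

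Klk1b11 followed Klk1 from library to library. For each 1000 Klk1 counts there were 17.2 and 17.9 Klk1b11 counts at 8 weeks and 18.2 and 19.8 at 32 weeks, a highest-to-lowest ratio of 1.15, while Klk1 itself ranged 3.31-fold in CPM. The other tested members kept less constant ratios, with highest-to-lowest values between 1.53 for Klk1b3 and 5.35 for Klk1b22. As given above, 6.63% of the 50-base stretches of Klk1b11 also occur in Klk1. The part of shared reads in this constant ratio was not tested.

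Klk1b22, an epidermal growth factor binding protein, had the most negative fold change with all libraries, although Klk1b24 lay lower without 8-week replicate 1 or 32-week replicate 3, and Klk1b5 without 8-week replicate 1. It had 157 and 122 counts at 8 weeks and 34 and 38 at 32 weeks. The 8-week libraries lay well above the 32-week libraries, with no overlap, and the mean CPM was 4.39-fold higher at 8 weeks (10.005 ± 2.24 against 2.28 ± 0.099, SD, n = 2 libraries each). The log2 fold change was -2.13 (SE 0.29, 95% interval -2.81 to -1.45), and the edgeR adjusted p over all genes was 0.784.

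The call of Klk1b22 depended on the tool and its settings. DESeq2 called it (adjusted p = 0.0024), with 0.0166% of genes called by that tool, and limma-voom did not (adjusted p = 0.916, 0% of genes called). DESeq2 gave Smr3a the same adjusted p, although that gene had 674 counts in 8-week replicate 1 and 0 elsewhere. edgeR called Klk1b22 with total counts only (adjusted p = 7.2e-05, 0.0781% of genes called) and on the unfiltered table (adjusted p = 0.00114, 0.0387% called). These edgeR fits gave a gene's own replicates less weight: the prior degrees of freedom, which set the weight of the spread pooled over genes, were 5.39 in the main test, 25.6 on the unfiltered table and 1727 with total counts only, against 2 residual degrees of freedom from the libraries. With total counts only, Amy1 also passed (adjusted p = 1.8e-40), although its 8-week libraries had 2059 and 29 counts, so a call in that fit does not measure against the spread between replicates. With robust estimation of the prior, an alternative chosen after seeing the data, the edgeR adjusted p of Klk1b22 was 0.583. Its log2 fold change stayed between -2.34 and -1.88 with any single library left out.

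Set against the rest of the family, Klk1b22 stood out in 8-week replicate 1 rather than at 8 weeks. It made up 0.561% of the family's counts there (95% Clopper-Pearson interval 0.477 to 0.655%), 0.190% in 8-week replicate 2 (0.158 to 0.226%), 0.106% in 32-week replicate 3 (0.0731 to 0.148%) and 0.164% in 32-week replicate 4 (0.116 to 0.226%). The intervals of 8-week replicate 2 and 32-week replicate 4 overlapped. For each 1000 Klk1 counts there were 5.78 and 1.95 Klk1b22 counts at 8 weeks and 1.08 and 1.69 at 32 weeks. 8-week replicate 1 was also the library with Amy1 and Smr3a, and the part of tissue from another gland in this value was not tested. Prol1, a submandibular product, was high in both 8-week libraries (196 and 203 CPM, against 10.02 and 0.407 CPM at 32 weeks), where the CPM of Klk1b22 was 11.6 and 8.42, against 2.35 and 2.21 at 32 weeks.

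**Figure D3:**
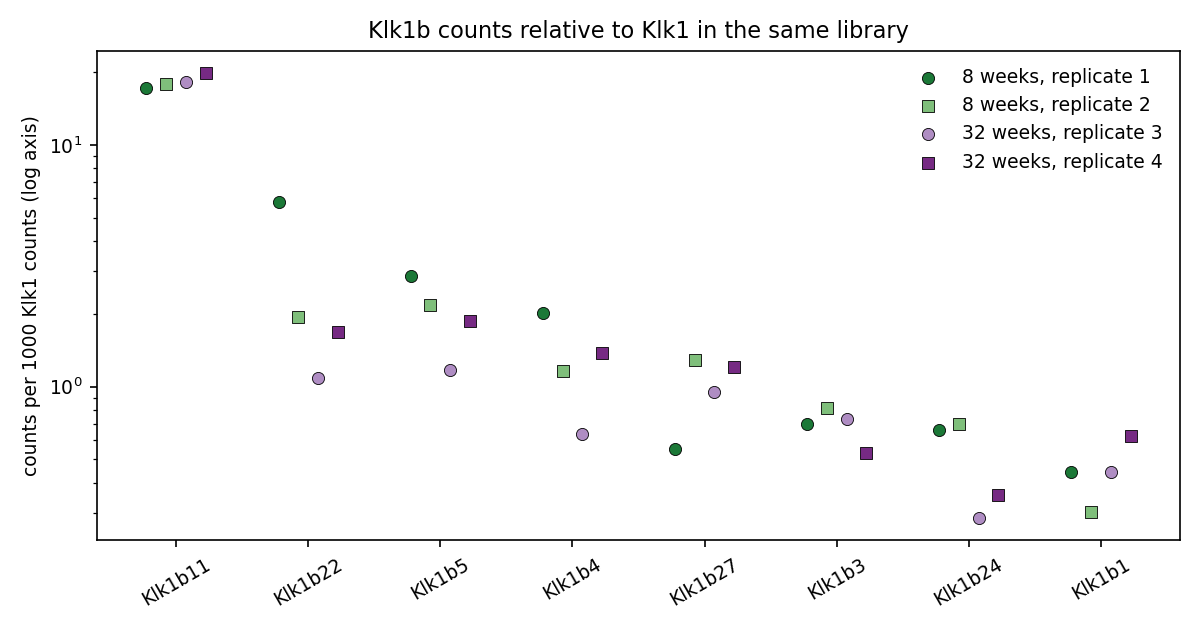
Counts of each Klk1b member for every 1000 Klk1 counts in the same library (log axis), 1 point per library. Klk1b11 stays between 17.2 and 19.8, whereas Klk1b22 is 5.78 in 8-week replicate 1 and 1.08 to 1.95 in the other libraries.

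Klk1b4, a paralog without protease activity, had 55 and 73 counts at 8 weeks and 20 and 31 at 32 weeks. The ages did not overlap, and the log2 fold change was -1.50 (SE 0.34, 95% interval -2.30 to -0.71, edgeR adjusted p = 0.999). It ranged from -1.71 to -1.32 with any single library left out. Klk1b3, its neighbour in the cluster, had 19 and 51 counts at 8 weeks and 23 and 12 at 32 weeks, so its ages overlapped (log2 fold change -1.13, SE 0.59, edgeR adjusted p = 0.999). With single libraries left out its value ranged from -1.80 (without 32-week replicate 3) to -0.31 (without 8-week replicate 2). The difference between both genes was not tested.

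Klk1b5, the closest paralog of Klk1, had 78 and 136 counts at 8 weeks and 37 and 42 at 32 weeks. Both 32-week libraries lay below both 8-week libraries, and the log2 fold change was -1.60 (SE 0.33, 95% interval -2.38 to -0.82, edgeR adjusted p = 0.999). Its CPM was 5.76 and 9.39 at 8 weeks and 2.56 and 2.44 at 32 weeks. With single libraries left out its value lay between -1.90 and -1.20. For each 1000 Klk1 counts there were 2.87 and 2.17 Klk1b5 counts at 8 weeks and 1.18 and 1.87 at 32 weeks, a highest-to-lowest ratio of 2.44.

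Klk1b24 had 18 and 44 counts at 8 weeks and 9 and 8 at 32 weeks. These are low counts without overlap between the ages, and the log2 fold change was -2.005 (SE 0.56, 95% interval -3.31 to -0.70, edgeR adjusted p = 0.999). Leaving out 8-week replicate 1 gave -2.47, and leaving out 8-week replicate 2 gave -1.28. Klk1b27, whose coding sequence is 93.6% identical to that of Klk1b24, had 15 and 81 counts at 8 weeks and 30 and 27 at 32 weeks. It was lowest in 8-week replicate 1 and highest in 8-week replicate 2, and its log2 fold change of -0.89 (SE 0.67, edgeR adjusted p = 0.999) became 0.71 without 8-week replicate 2.

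Klk1b1 was the flattest member, with 12 and 19 counts at 8 weeks and 14 in each 32-week library. Its log2 fold change was -0.31 (SE 0.47, 95% interval -1.42 to 0.80, edgeR adjusted p = 0.999), and 0.0095 without 8-week replicate 2. At this depth the interval includes both a fall of more than 2-fold and a rise of up to 0.80 on the log2 scale.

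**Figure D4:**
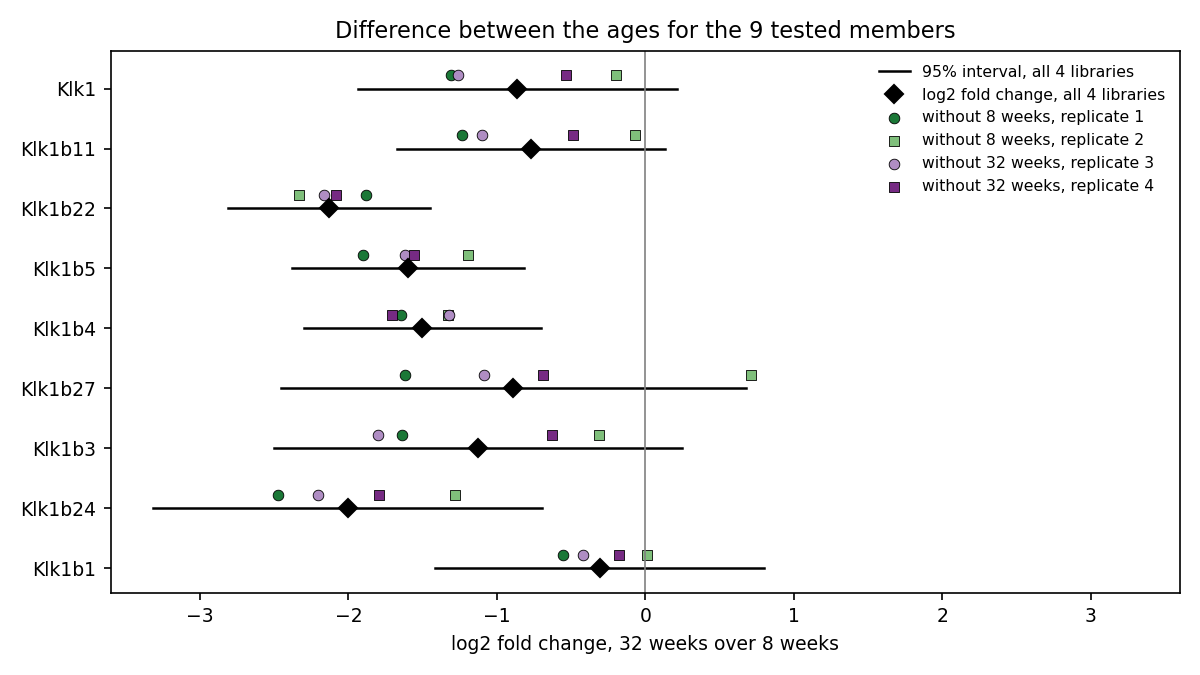
Log2 fold change of 32 over 8 weeks for the 9 tested members (diamonds) with 95% intervals (lines), and the same value with each library left out in turn (coloured points). The points without 8-week replicate 2 lie nearest to 0 or above it for most members, while the Klk1b22 points stay between -2.34 and -1.88.

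Another 5 Klk1b genes in the table are not among the members. Klk1b9, an epidermal growth factor binding protein, was the most abundant of them with 62 and 224 counts at 8 weeks and 67 and 68 at 32 weeks. Klk1b16 had 40 and 44 counts at 8 weeks and 25 and 22 at 32 weeks, and Klk1b21 had 34 and 40 and then 17 and 27. Klk1b8 had 11 and 18 counts at 8 weeks and 7 and 4 at 32 weeks. The pseudogene Klk1b7-ps had 3 and 10 and then 10 and 10, and did not pass the filter. It went the other way, with a DESeq2 log2 fold change of 0.48. Of the 4 that passed the filter, 0 reached an adjusted p of 0.05 with edgeR, all 4 had negative fold changes (median log2 -1.11), and all 4 had an unadjusted p under 0.05. So all 13 tested Klk1 and Klk1b genes had negative fold changes, and 8 of the 13 had an unadjusted p under 0.05, where 1.36% of all genes did. Both counts include Klk1b8 and Klk1b24, which passed the filter only through their 8-week libraries, so these genes add no support.

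The kallikrein-related peptidases outside the Klk1 subfamily were nearly silent. Of 12 such genes, Klk4 to Klk15, 8 had 0 counts in every library, and only Klk8, at 7 to 13 counts per library, could be tested (log2 fold change 0.52, edgeR adjusted p = 0.999). Klk9, Klk13 and Klk15 had at most 2 counts in a library.

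Partners of the kinin pathway were largely at or under the detection limit. Kng1, a kininogen, had 0 counts in all libraries, and Kng2 had 0 or 1. The bradykinin receptors Bdkrb1 and Bdkrb2 each had 1 count in a single library and 0 in the others. Plasma kallikrein Klkb1 had at most 2 counts per library, F12 at most 2, and F11 none. Peptidases that degrade kinins were present: Cpd, a carboxypeptidase, had 963 and 617 (8 weeks), then 666 and 900.2 CPM (32 weeks), and Dpp4 had 73.5 and 79.1 and then 60.2 and 60.5 CPM. Of the 9 tested genes of that list none passed with edgeR, 7 had negative and 2 positive fold changes, and the median was -0.15.

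Among substrates of the Klk1b enzymes, Egf, the epidermal growth factor precursor, had 159 and 258 (8 weeks), then 157 and 123 CPM (32 weeks). Both 32-week values lay below both 8-week values, replicate 3 by little (log2 fold change -0.57, SE 0.29, edgeR adjusted p = 0.999). Ren1, a renin, had 0 counts in all libraries. The Ren2 entry also held 0 counts, but no gene model of that name was found in GENCODE vM1, so no level is read from it. Of 7 tested serine protease inhibitors none passed with edgeR, and 5 had positive and 2 negative fold changes. Spint2, a broad inhibitor of trypsin-like proteases, had 482 and 356 (8 weeks), then 586 and 501 CPM (32 weeks). Spink5, an inhibitor of kallikrein-related peptidases, had 10.4 and 174 (8 weeks), then 86.7 and 24.7 CPM (32 weeks). It was the only 1 of the 7 tested inhibitors that was highest in 8-week replicate 2, where most members peaked. Slpi, another listed inhibitor, was lowest there, with 17.9 and 0.76 (8 weeks), then 7.53 and 23.3 CPM (32 weeks).

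Of 20 duct genes 18 were tested and none passed with edgeR. Negative fold changes were seen for 14 of the 18, against 51.7% of all genes, and the median was -0.15. In 8-week replicate 2, 11 of the 18 were highest, against 34.7% of all genes. Fxyd2, a sodium pump subunit of salivary ducts, had 102 and 365 (8 weeks), then 116 and 112 CPM (32 weeks). More abundant genes of the list varied less, though some of them, such as the keratin Krt18, are not particular to ducts. Krt18 was lowest in 8-week replicate 2, with 755 and 633 (8 weeks), then 789 and 859 CPM (32 weeks). Ehf had 448 and 545 and then 447 and 423 CPM, and Tfcp2l1 had 261 and 394 and then 300 and 274 CPM. The 20 genes summed to 2360 and 2892 (8 weeks), then 2570 and 2406 CPM (32 weeks), and Kcnj1 had 1 count in all. Krt18 took a large part of this sum, so the sum is no measure of duct content alone. In whole glands fewer duct cells and less RNA per duct cell cannot be told apart. The part of the duct share of each gland in the members' values was not tested.

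A list of submandibular duct products other than kallikreins was measured too. Of 8 listed genes 6 were tested and none passed. Negative fold changes were seen for 5, and the median was -0.66. The 1 positive gene was Bpifa2 (log2 fold change 0.07), an abundant serous protein rather than a duct product. The summed level was 15590 and 38198 (8 weeks), then 42933 and 13226 CPM (32 weeks). Bpifa2 set most of it, so the sum does not describe duct products. The acinar products of parotid and submandibular gland had 5 negative fold changes of 6 tested (median -2.62), and none passed the main edgeR test. Amy1 and Dnase1 were high in 8-week replicate 1 alone, and Lpo in 8-week replicate 2 alone. The median thus rests in part on single libraries and is not read as a fall with age. On the unfiltered table Prol1 (edgeR adjusted p = 2.5e-05), Amy1 and Smr3a (adjusted p = 0.00381 each) and Dnase1 (adjusted p = 0.0135) passed. Smr3a had counts in 8-week replicate 1 only, so a call in that fit can rest on a single library. With total counts only, Prol1, Amy1, Dnase1 and Lpo passed. That list's sum was 12475 and 14635 (8 weeks), then 19945 and 11170 CPM (32 weeks), most of it from Pip. Prb1 had 0 counts in every library, and Prpmp5 at most 3.

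Among 6683 genes with a mean of at least 10 CPM outside the family, those closest to Klk1 over the 4 libraries were Crisp3, Kit, Ccdc129, Elf3 and Usp18. Closeness was the root mean square difference of log2 CPM after each gene's mean was taken off, and it was 0.136, 0.138, 0.154, 0.185 and 0.188 in that order, against 0.0755 for Klk1b11. The same 5 genes were closest to the median profile of the tested members. Crisp3, a cysteine-rich secretory protein of salivary ducts, had 168 and 286 (8 weeks), then 152 and 87.8 CPM (32 weeks). With 4 libraries and so many candidates such likeness is a description only.

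By the same measure the closest pairs of members were Klk1 with Klk1b11 (0.0755), Klk1 with Klk1b3 (0.209) and Klk1b4 with Klk1b5 (0.21), and the farthest was Klk1b22 with Klk1b27 (1.28). Klk1b27 was low and Klk1b22 high in 8-week replicate 1, relative to their own means (-0.92 and 1.28 on the log2 scale). In 32-week replicate 4 each of the 9 tested members lay below its own mean, from -1.13 for Klk1b24 to -0.26 for Klk1b1.

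**Figure D5:**
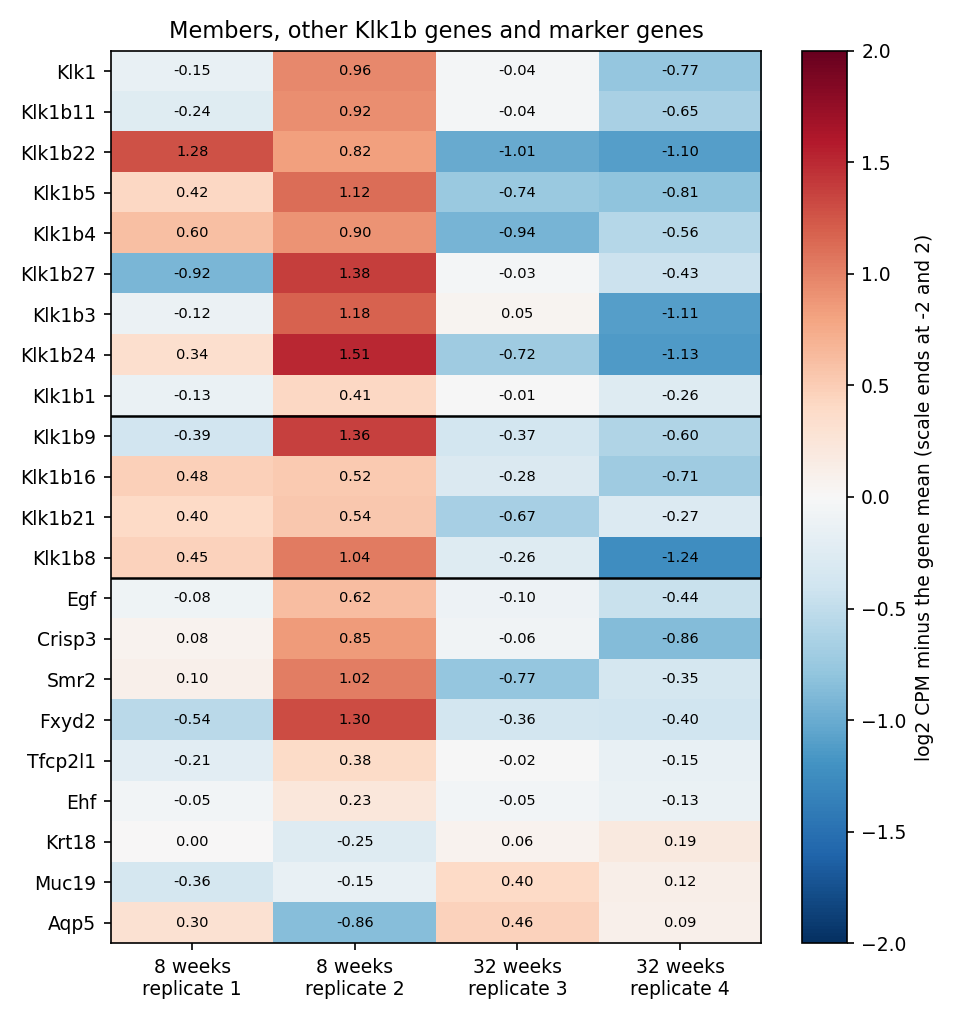
Log2 CPM minus the gene's mean over the 4 libraries, for the 9 tested members (top), the 4 other tested Klk1b genes (middle) and marker genes picked for display (bottom). All 13 kallikrein genes are above their mean in 8-week replicate 2 and below it in 32-week replicate 4; Egf, Crisp3 and Fxyd2 share this, and Krt18 and Aqp5 do not.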

How the data were processed

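Of the 4 RNA sequencing libraries, 2 were labelled 8 weeks and 2 were labelled 32 weeks. RNA came from frozen glands (Trizol) and was sequenced after TruSeq preparation, per the labels' protocols. Reads were aligned with STAR to mm9, per the submitters' processing notes; the sources used here do not give the counting tool, annotation, strand setting or read length. The authors deposited raw counts for each gene symbol, without normalization.

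edgeR 4.0.16 (R 4.3.3) was fitted to all genes kept by filterByExpr, with TMM factors and age as the only term; p-values were adjusted over 12810 genes. SE and 95% intervals come from the same fit. Alternatives were scaling by RLE, scaling by totals, removal of the 10 most abundant genes, other filters, DESeq2 1.42.0, limma-voom (limma 3.58.1), each library left out and, added later, robust estimation. Scripts were tested on simulated data. Positions, lengths and sequences come from GENCODE vM1 and NCBIM37, and alignments from MAFFT 7.526. Named genes were all members, the most abundant genes of each list, fixed control genes and the 5 genes closest to Klk1; some other list genes and the duct markers plotted were picked after their values were seen. The members and lists were chosen with earlier results of these data known. Some genes of the lists are not reported here.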

Additional observations from a re-analysis of the deposited data

How the results depend on the processing

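No paired analysis was possible because the ages share no replicate number. The count of members past the threshold was 0 in the main analysis and also 0 with RLE factors, without the 10 most abundant genes, with at least 1 CPM in 3 libraries and with limma-voom. It was 1 with total counts only, with no low-count filter and with DESeq2, in each case Klk1b22, and 1 to 4 with a library left out (4 without 8-week replicate 1: Klk1b5, Klk1b11, Klk1b22 and Klk1b24). Over all genes the count was 0 in the main analysis, 10 with total counts only, 7 with no low-count filter, 3 with DESeq2, and 6 to 285 with a library left out, the highest without 8-week replicate 1; the cause was not tested. At an unadjusted p under 0.05 edgeR had 174 genes and DESeq2 89. The count of negative members was added after seeing the data: all members tested were negative in each alternative (7 of 7 tested with the CPM filter) except without 8-week replicate 2 (7 of 9). There Klk1b1 and Klk1b27 turned positive: with a library left out their log2 fold changes ranged from -0.56 to 0.0095 and from -1.62 to 0.71. In the same fits the family's log2 ratio ranged from -1.36 to -0.25, and the difference in the share of Klk1 from 0.0721 to 0.446 points. Fits with a library left out have 1 residual degree of freedom, so their counts of calls are values, not support; without either 32-week library the prior was infinite, and a gene's own spread had no weight. With robust estimation, added after seeing the data, both counts were 0.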
